A study of Mus musculus with 37 samples.

Results

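Morc4, Lonrf3, Clmp and Phxr4 were followed across the irradiated mouse mammary gland, 4 genes of the 18820 that could be named on the array. They were selected on their array values, for some of the strongest shifts between glands given 30 cGy of silicon ions and sham glands over 3 weeks of collection. Each gene had 1 probe set annotated with its symbol alone (10606948 for Morc4, 10599192 for Lonrf3, 10584561 for Clmp and 10583203 for Phxr4), and all 4 passed the filter on low values that kept 13174 genes. The members were thus chosen by the values of 30 cGy silicon against sham, which are given as a description with no test.

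Silicon ions deposit their energy densely along a track, whereas gamma rays ionize sparsely. Morc4 encodes a nuclear ATPase of the MORC family with a CW-type zinc finger, a domain that reads methylated lysine on histone H3. Lonrf3 encodes a protein with a RING finger, the domain of many ubiquitin ligases, and a LON substrate-binding domain. Clmp encodes an immunoglobulin-type adhesion protein of the CTX family that sits at cell junctions and is also called adipocyte adhesion molecule. Phxr4 is a per-hexamer repeat gene, a transcript that RefSeq classes as a long non-coding RNA gene spanning 1391 bases and that lies within Maml2, a gene for a Notch coactivator, on the same strand.

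The 37 arrays came from female BALB/cJ mice that had 1 inguinal mammary gland cleared and the opposite gland left intact, and the intact gland was measured. The mice were moved to the irradiation site and exposed at 10 weeks of age to 30 cGy Si (350 MeV/amu), 10 cGy Si, 100 cGy gamma rays or sham treatment. Glands were collected 1, 4 and 12 weeks later, the first at the irradiation site and the others after the mice had been moved back, so week cannot be told apart from place of collection and age. Each treatment had 3 arrays per week, except for 4 sham arrays at week 4. The clearing of 1 gland and the transport are shared by all groups, sham included. Whether replicates were separate animals is not stated in the labels, and the p-values therefore cover only the spread from sample to sample, part or all of which may be technical. Values are deposited log2 levels, ± is an SD for levels and an SE for differences, and in whole tissue fewer cells of a type and less RNA per cell cannot be told apart. Array-to-array correlations ran from 0.949 to 0.994, with the lowest medians, 0.970 and 0.971, for replicate 3 of week 1 sham and replicate 1 of week 4 sham. All 13 measured luminal and all 8 basal epithelial markers passed the filter, as did all 9 measured white adipocyte markers.

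Start-site windows are shown because the genes differ in the known promoter letters they carry. RefSeq windows of 250 bases before to 50 after the start (GRCm38.p6) were held for 3 of the 4 genes, Morc4 at chrX:139871605-139871904 on the minus strand, Lonrf3 at chrX:36328159-36328458 on the plus strand and Phxr4 at chr9:13431111-13431410 on the plus strand. No window was held for Clmp. Capitals mark matches on either strand to 7 motifs, and no matches overlap. These were the GC box, spelled GGGCGG, the CCAAT box, the TATA box, spelled TATAAA, and the E-box, spelled CACGTG. The others were the AP-1 site, spelled TGANTCA, the core of the antioxidant response element, spelled TGACNNNGC, and the p53 half-site, spelled RRRCWWGYYY. Here R is A or G, Y is C or T, W is A or T and N is any base.
Morc4: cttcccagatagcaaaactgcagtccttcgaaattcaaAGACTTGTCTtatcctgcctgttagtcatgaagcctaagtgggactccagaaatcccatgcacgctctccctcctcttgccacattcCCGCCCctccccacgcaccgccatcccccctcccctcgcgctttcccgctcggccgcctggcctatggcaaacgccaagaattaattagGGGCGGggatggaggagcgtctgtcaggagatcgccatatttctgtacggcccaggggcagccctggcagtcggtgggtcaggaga
Lonrf3: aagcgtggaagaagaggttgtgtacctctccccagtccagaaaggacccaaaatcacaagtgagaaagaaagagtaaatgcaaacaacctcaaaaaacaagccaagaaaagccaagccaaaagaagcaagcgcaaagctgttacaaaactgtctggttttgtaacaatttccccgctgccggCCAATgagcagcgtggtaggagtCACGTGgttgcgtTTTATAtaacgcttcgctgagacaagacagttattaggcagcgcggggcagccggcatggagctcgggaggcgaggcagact
Phxr4: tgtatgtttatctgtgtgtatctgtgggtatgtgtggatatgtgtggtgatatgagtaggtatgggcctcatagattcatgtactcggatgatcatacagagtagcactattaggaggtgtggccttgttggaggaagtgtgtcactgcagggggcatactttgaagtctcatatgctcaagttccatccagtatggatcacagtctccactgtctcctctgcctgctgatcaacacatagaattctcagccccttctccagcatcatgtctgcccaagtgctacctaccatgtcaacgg
Counted from the start site, Morc4 held 2 GC boxes, at -125 on the opposite strand and at -36 on the gene's strand, and 1 match to the p53 half-site at -212. Among 32841 promoter windows of the same length, 35.7% held a GC box and 8.36% the p53 half-site. Lonrf3 held the CCAAT box at -68, the E-box at -45 and the TATA box at -32 on the opposite strand, and 37.4%, 7.15% and 13.6% of the windows held these. Phxr4 had no match to any of the 7 motifs, which says only that these letters are not in this window. The AP-1 site was held by 7.81% and the antioxidant core by 12.4% of all windows and by none of the 3 shown. The GC content was 58.7% for Morc4, 49.7% for Lonrf3 and 47% for Phxr4, against a median of 52.7%.

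**Figure D1:**
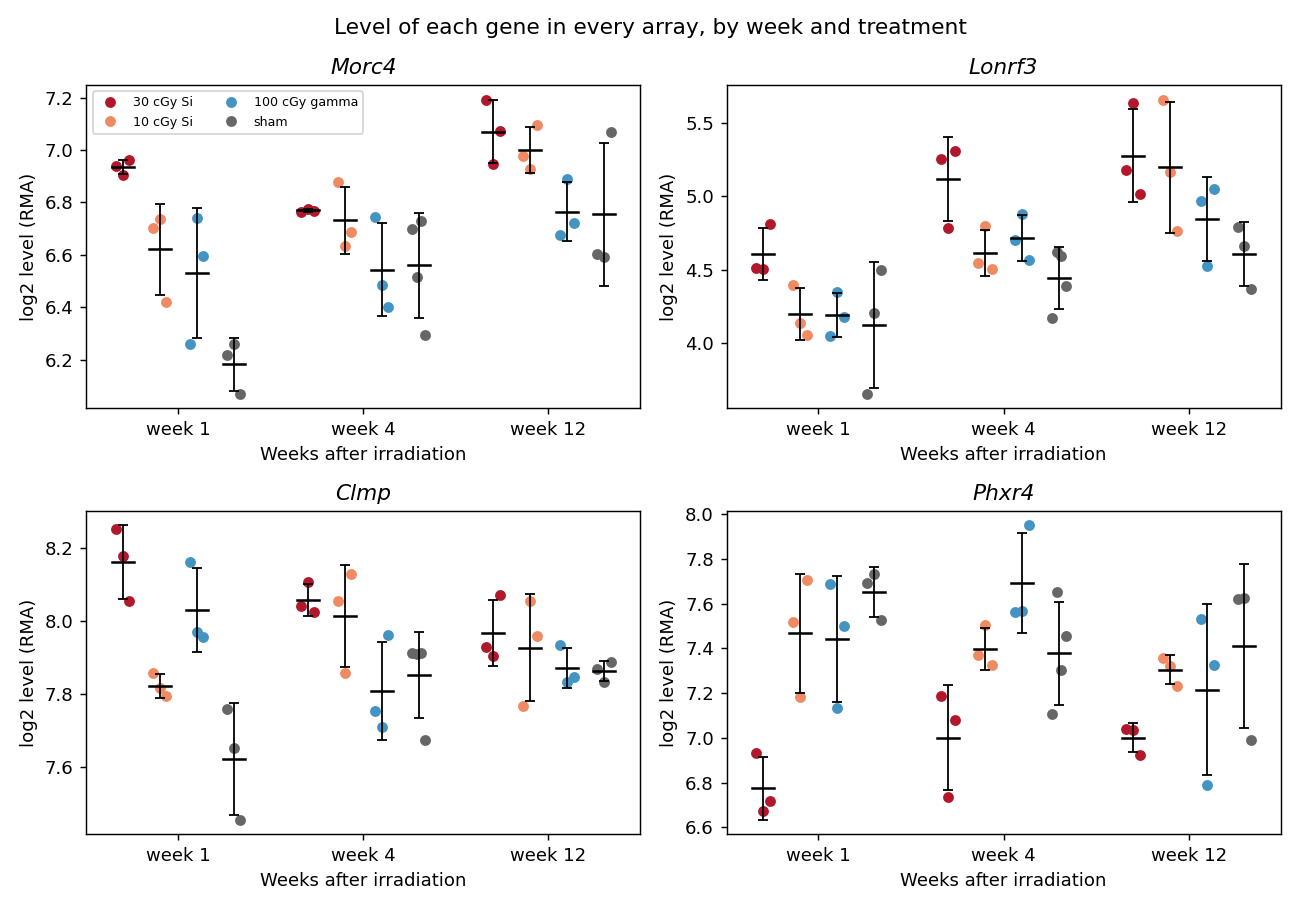
Log2 level (RMA) of each gene in every array, by week after irradiation and treatment. Points are arrays, horizontal bars are group means and vertical bars are ± SD. Morc4 in 30 cGy Si arrays of week 4 lay between 6.76 and 6.78, and Phxr4 in 30 cGy Si arrays of week 1 lay between 6.67 and 6.93, below all other arrays of that week.

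Morc4, the histone-reading ATPase gene, lay higher on average after 30 cGy Si than in sham glands at each week, most at week 1. At week 1 its levels were 6.94, 6.91 and 6.96 after 30 cGy Si, 6.70, 6.74 and 6.42 after 10 cGy Si, 6.26, 6.74 and 6.60 after gamma, and 6.22, 6.26 and 6.07 in sham. The 30 cGy Si arrays lay above every other array of that week, and the 10 cGy Si arrays above every sham array. Of all genes tested, 20.7% had no overlap between 30 cGy Si and sham at week 1, 11.8% none between 10 cGy Si and sham, and 14.3% none between gamma and sham. At week 4 the levels were 6.76, 6.78 and 6.77 after 30 cGy Si, 6.88, 6.63 and 6.69 after 10 cGy Si, 6.74, 6.48 and 6.40 after gamma, and 6.70, 6.51, 6.73 and 6.29 in sham. The 30 cGy Si arrays were close together and just above the highest sham array, and 8.01% of genes had no overlap with sham at week 4. At week 12 the levels were 7.19, 6.95 and 7.07 after 30 cGy Si, 6.98, 6.93 and 7.10 after 10 cGy Si, 6.68, 6.89 and 6.72 after gamma, and 6.60, 6.59 and 7.07 in sham. Replicate 3 of the week 12 sham arrays lay among the silicon arrays, so those groups overlapped, whereas 7.21% of genes had no overlap at week 12.

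The difference of 30 cGy Si from sham in Morc4 was 0.75 ± 0.13 at week 1, 0.21 ± 0.12 at week 4 and 0.32 ± 0.13 at week 12. Over the 3 weeks it was 0.43 ± 0.075, a 1.34-fold level. The difference of week 12 was 0.47 without sham replicate 3, and that of week 4 was 0.12 without sham replicate 4. Beside these, 10 cGy Si differed from sham by 0.44 ± 0.13, 0.17 ± 0.12 and 0.24 ± 0.13 at weeks 1, 4 and 12, and gamma by 0.35 ± 0.13, −0.02 ± 0.12 and 0.01 ± 0.13. These comparisons share the sham arrays that chose the gene and were not tested. The 30 cGy Si arrays lay above all gamma arrays in each of the 3 weeks, where 14.8%, 15.5% and 10.3% of genes had such groups without overlap at weeks 1, 4 and 12.

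Lonrf3, the RING and LON domain gene, had a mean over all arrays of 4.66, near the low end of the genes tested, and lay above sham after 30 cGy Si at each week. At week 1 its levels were 4.51, 4.51 and 4.81 after 30 cGy Si, 4.40, 4.14 and 4.06 after 10 cGy Si, 4.05, 4.35 and 4.18 after gamma, and 3.65, 4.21 and 4.50 in sham. The 30 cGy Si arrays lay above all others, although sham replicate 3 nearly reached them. At week 4 the levels were 5.26, 4.79 and 5.31 after 30 cGy Si, 4.55, 4.80 and 4.50 after 10 cGy Si, 4.71, 4.88 and 4.57 after gamma, and 4.17, 4.62, 4.59 and 4.39 in sham. After 30 cGy Si, 2 of 3 arrays lay above every array of the other treatments and all 3 lay above sham. At week 12 the levels were 5.18, 5.64 and 5.02 after 30 cGy Si, 5.66, 5.17 and 4.77 after 10 cGy Si, 4.97, 4.52 and 5.05 after gamma, and 4.79, 4.66 and 4.37 in sham. The silicon doses overlapped fully there, and the 30 cGy Si arrays stayed above sham. No overlap between 30 cGy Si and sham was found for 20.7%, 8.01% and 7.21% of genes at weeks 1, 4 and 12.

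Lonrf3 differed between 30 cGy Si and sham by 0.49 ± 0.21 at week 1, 0.68 ± 0.20 at week 4 and 0.67 ± 0.21 at week 12, and by 0.61 ± 0.12 over the 3 weeks, a 1.53-fold level. Its week 1 difference was 0.26 without sham replicate 1, the lowest array. After 10 cGy Si it differed from sham by 0.08 ± 0.21, 0.17 ± 0.20 and 0.59 ± 0.21, and after gamma by 0.07 ± 0.21, 0.27 ± 0.20 and 0.24 ± 0.21.

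Clmp, the adhesion gene, had group means from 7.62 to 8.16 and lay above sham after 30 cGy Si at each week, most at week 1. At week 1 its levels were 8.25, 8.18 and 8.05 after 30 cGy Si, 7.86, 7.82 and 7.79 after 10 cGy Si, 8.16, 7.97 and 7.95 after gamma, and 7.76, 7.65 and 7.45 in sham. All 9 irradiated arrays of that week lay above the 3 sham arrays, with gamma above 10 cGy Si. Week 1 shares of all genes without overlap with sham were 20.7% (30 cGy Si), 11.8% (10 cGy Si) and 14.3% (gamma). At week 4 the levels were 8.04, 8.11 and 8.02 after 30 cGy Si, 8.05, 7.86 and 8.13 after 10 cGy Si, 7.75, 7.71 and 7.96 after gamma, and 7.91, 7.91, 7.91 and 7.67 in sham. The 30 cGy Si arrays lay above gamma and sham and inside the range of 10 cGy Si. At week 12 the levels were 7.93, 7.90 and 8.07 after 30 cGy Si, 7.77, 8.05 and 7.96 after 10 cGy Si, 7.93, 7.83 and 7.84 after gamma, and 7.87, 7.83 and 7.89 in sham. The 30 cGy Si arrays were above sham by a small margin and overlapped both other treatments. No overlap between 30 cGy Si and sham was found for 8.01% of genes at week 4 and 7.21% at week 12.

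The Clmp difference of 30 cGy Si from sham was 0.54 ± 0.096 at week 1, 0.21 ± 0.090 at week 4 and 0.11 ± 0.096 at week 12. Over the 3 weeks it was 0.28 ± 0.054, a 1.22-fold level. The week 12 value was 0.05 without 30 cGy Si replicate 3. After 10 cGy Si, Clmp differed from sham by 0.20 ± 0.096, 0.16 ± 0.090 and 0.06 ± 0.096, and after gamma by 0.41 ± 0.096, −0.04 ± 0.090 and 0.01 ± 0.096.

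Phxr4, the non-coding transcript within Maml2, was the only one of the 4 that was lower after 30 cGy Si. At week 1 its levels were 6.93, 6.67 and 6.72 after 30 cGy Si, 7.52, 7.18 and 7.70 after 10 cGy Si, 7.69, 7.13 and 7.50 after gamma, and 7.69, 7.73 and 7.53 in sham. All 3 arrays of 30 cGy Si lay below the 9 others, and 20.7% of genes had no overlap between 30 cGy Si and sham then. At week 4 the levels were 7.19, 6.74 and 7.08 after 30 cGy Si, 7.37, 7.50 and 7.32 after 10 cGy Si, 7.56, 7.57 and 7.95 after gamma, and 7.11, 7.65, 7.30 and 7.46 in sham. The lowest sham array fell inside the range of 30 cGy Si, whereas all gamma and 10 cGy Si arrays lay above it. At week 12 the levels were 7.04, 7.03 and 6.93 after 30 cGy Si, 7.36, 7.32 and 7.23 after 10 cGy Si, 7.53, 6.79 and 7.32 after gamma, and 7.62, 7.62 and 6.99 in sham. Sham replicate 3 and gamma replicate 2 were within or below the range of the 30 cGy Si arrays.

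Phxr4 differed between 30 cGy Si and sham by −0.88 ± 0.18 at week 1, −0.38 ± 0.17 at week 4 and −0.41 ± 0.18 at week 12. Over the 3 weeks the difference was −0.55 ± 0.10, a 0.681-fold level. Leaving out sham replicate 3 of week 12 gave −0.62 for that week, and leaving out 30 cGy Si replicate 2 of week 4 gave −0.24 for that week. After 10 cGy Si, Phxr4 differed from sham by −0.18 ± 0.18, 0.02 ± 0.17 and −0.11 ± 0.18, and after gamma by −0.21 ± 0.18, 0.31 ± 0.17 and −0.20 ± 0.18.

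Set against the other radiations, the 30 cGy Si arrays gave the following differences, which rest on the 30 cGy Si arrays that chose the genes and were not tested. Minus 10 cGy Si, the differences over the 3 weeks were 0.14 ± 0.077 for Morc4, 0.33 ± 0.12 for Lonrf3, 0.14 ± 0.056 for Clmp and −0.47 ± 0.11 for Phxr4. Only Phxr4 of the 4 had no overlap between the silicon doses in all 3 weeks, where 16.3%, 10.9% and 10.3% of genes had none at weeks 1, 4 and 12. Morc4, Lonrf3 and Clmp had none at week 1. Minus gamma, the differences were 0.31 ± 0.077 for Morc4, 0.42 ± 0.12 for Lonrf3, 0.16 ± 0.056 for Clmp and −0.52 ± 0.11 for Phxr4. Besides Morc4, the arrays of 30 cGy Si and gamma did not overlap for Phxr4 and Lonrf3 at week 1, as for 14.8% of genes. At week 4 they did not overlap for Phxr4 and Clmp, as for 15.5%.

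**Figure D2:**
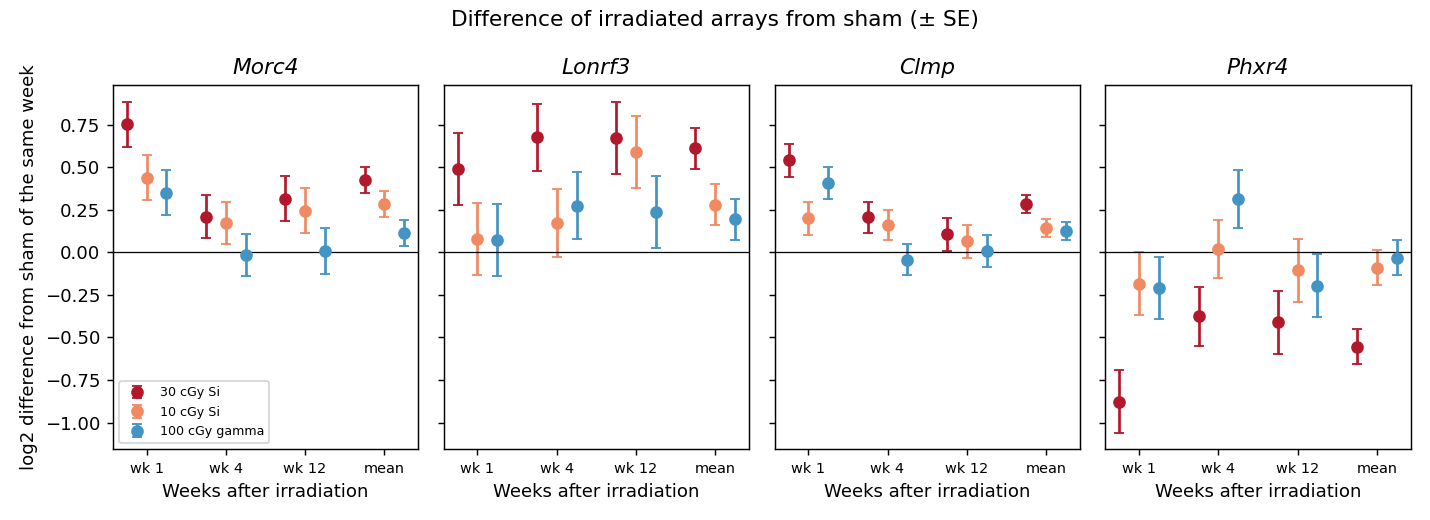
Log2 difference of 30 cGy Si, 10 cGy Si and 100 cGy gamma from sham of the same week, and of the mean of 3 weeks, with bars of ± SE. Morc4 and Clmp after 30 cGy Si were furthest from 0 at week 1 (0.75 and 0.54), Lonrf3 stayed between 0.49 and 0.68, and Phxr4 lay below 0 at each week.

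The course over the weeks differed among the genes in this description. For Morc4, Clmp and Phxr4 the week 1 difference of 30 cGy Si from sham was the furthest from 0, and for Lonrf3 the difference stayed near the same size. At week 1, all 4 genes had no overlap between 30 cGy Si and sham, as had 20.7% of all genes tested. At week 4 it was Morc4, Lonrf3 and Clmp, beside 8.01% of all genes. At week 12 it was Lonrf3 and Clmp, beside 7.21%. Nothing is read from those counts, since the same arrays chose the genes. By p over the 3 weeks the 4 genes held places 1, 2, 4 and 5 of the order. Place 3 was Gsta3, a glutathione transferase gene, at 0.58 ± 0.11. Just past Lonrf3 came Nop53, a nucleolar gene, at −0.32 ± 0.064, Twf1, an actin-binding gene, at 0.29 ± 0.058, and Gla, for a lysosomal galactosidase, at 0.36 ± 0.074. In this comparison limma called 4 of 13174 genes at an adjusted p under 0.05 (0.0304%), 3 of them among the genes described, and nothing is read from that count because it chose them.

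Ordered by mean over the 12 groups, each gene ran in small steps. Morc4 was highest at week 12 after 30 cGy Si (7.07 ± 0.12) and lowest at week 1 in sham (6.18 ± 0.10). Of its 11 pairs of neighbours in that order, 2 differed by more than the larger SD of the pair, namely week 1 above week 4 after 30 cGy Si, whose ranges did not overlap, and gamma above sham at week 1. Lonrf3 ran from 5.28 ± 0.32 at week 12 after 30 cGy Si to 4.12 ± 0.43 at week 1 in sham, and 1 of 11 neighbouring pairs differed beyond its SD, week 4 sham above week 1 of 10 cGy Si. Clmp ran from 8.16 ± 0.10 at week 1 after 30 cGy Si to 7.62 ± 0.15 at week 1 in sham, with 2 of 11 such pairs, week 1 above week 4 after 30 cGy Si and week 4 of gamma above week 1 sham. Phxr4 ran from 7.69 ± 0.22 at week 4 after gamma to 6.77 ± 0.14 at week 1 after 30 cGy Si, with 1 of 11, week 12 above week 1 after 30 cGy Si. For all these pairs but the one of Morc4 the ranges overlapped. The 3 lowest group means of Phxr4 were those of 30 cGy Si.

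The arrays of 10 cGy Si and 100 cGy gamma were not compared in the choice, so the genes were tested between them. Their spread within groups did enter the model that ordered the genes by p. The same spread gives the SE here, so these tests are not fully independent of the choice. None of the 4 differed at an adjusted p under 0.05 in any week or over the 3 weeks, and limma called 0 of 13174 genes in each of these 4 comparisons (0%), with 518, 727 and 502 genes at an unadjusted p under 0.05 at weeks 1, 4 and 12 and 574 over the 3 weeks. Under other settings or without 1 array, up to 4 genes were called at week 1 and up to 1 at week 4. Morc4 averaged 6.78 ± 0.21 after 10 cGy Si and 6.61 ± 0.20 after gamma (SD, n = 9 each over 3 weeks). Its difference was 0.17 ± 0.077, with a 95% interval from 0.01 to 0.33 (limma adjusted p = 1.00, and p = 0.0375 unadjusted by a two-sided exact permutation within weeks). Adjusted over the 4 genes, the permutation p of Morc4 was 0.15. The unadjusted permutation p was 0.5242 for Lonrf3, 0.7925 for Clmp and 0.617 for Phxr4. The 3 weekly differences of Morc4 were 0.09 ± 0.13, 0.19 ± 0.13 and 0.24 ± 0.13. Only at week 12 did all its 10 cGy Si arrays lie above all gamma arrays, where 9.31% of genes had no overlap. The week 4 value of Morc4 was 0.07 with covariates for the mix of tissues, 0.12 without 10 cGy Si replicate 1 and 0.29 without gamma replicate 1.

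The other 3 genes differed less between these radiations over the 3 weeks. Lonrf3 differed by 0.08 ± 0.12 (95% interval −0.17 to 0.33), Clmp by 0.02 ± 0.056 (−0.10 to 0.13) and Phxr4 by −0.06 ± 0.11 (−0.28 to 0.16). Single arrays of week 12 moved these values over the 3 weeks. Lonrf3 differed by 0.0078 without 10 cGy Si replicate 1 of that week and by 0.16 without replicate 3, and Phxr4 by −0.13 without gamma replicate 2 and by −0.0065 without replicate 1. Clmp was lower after 10 cGy Si than after gamma at week 1 (−0.21 ± 0.096) and higher at week 4 (0.21 ± 0.096). The change of that difference, week 4 minus week 1, was 0.41 ± 0.14 and was not called (limma adjusted p = 0.697, 0.00513 unadjusted). At week 1 the Clmp arrays of the radiations did not overlap, as for 11.9% of genes, and at week 4 those of Phxr4 did not, as for 12.1%, with a Phxr4 difference of −0.29 ± 0.18 (limma adjusted p = 0.851). That Phxr4 difference was −0.08 with the tissue covariates and −0.16 without gamma week 4 replicate 3.

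Over the weeks, Lonrf3 and Morc4 rose in the pooled 10 cGy Si and gamma arrays. The choice did not compare these arrays, although their spread within groups entered the model that ordered the genes. Sham means rose too, at 4.12, 4.44 and 4.61 for Lonrf3 over weeks 1, 4 and 12. For Morc4 they were 6.18, 6.56 and 6.76. The sham arrays helped choose the genes, so their course was not tested. In the pooled arrays, 2 of the 4 genes were called as higher at week 12 against week 1. There 20.8% of all genes were called and 8.59% as higher. At week 4 against week 1 it was 1 of the 4, where 10.5% of all genes were called and 3.93% as higher, and at week 12 against week 4 it was 0 of the 4, where 0.144% were called. Lonrf3 averaged 4.20 ± 0.18, 4.62 ± 0.16 and 5.20 ± 0.45 after 10 cGy Si at weeks 1, 4 and 12, and 4.19 ± 0.15, 4.72 ± 0.16 and 4.85 ± 0.28 after gamma (SD, n = 3 each). Its rise was 0.83 ± 0.15 at week 12 against week 1 (limma adjusted p = 0.000261) and 0.47 ± 0.15 at week 4 against week 1 (limma adjusted p = 0.0405). Week 12 minus week 4 was 0.36 ± 0.15 and did not pass (limma adjusted p = 0.413). The call at week 4 against week 1 was lost without any 1 of 9 of the 12 arrays of those weeks (all but 10 cGy Si week 1 replicate 1, gamma week 1 replicate 2 and gamma week 4 replicate 3), with adjusted p values of up to 0.101.

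Morc4 rose by 0.31 ± 0.094 at week 12 against week 1 (limma adjusted p = 0.0202). At week 4 against week 1 it differed by 0.06 ± 0.094 (limma adjusted p = 0.751), and at week 12 against week 4 by 0.24 ± 0.094 (limma adjusted p = 0.348). For week 12 against week 1 Clmp differed by −0.03 ± 0.068 (limma adjusted p = 0.823) and Phxr4 by −0.19 ± 0.13 (limma adjusted p = 0.309), with −0.09 for Phxr4 without gamma week 12 replicate 2. The Morc4 call was lost without 10 cGy Si week 1 replicate 3, 10 cGy Si week 12 replicate 3, gamma week 12 replicate 2 or gamma week 1 replicate 1, where the limma adjusted p was highest (0.083).

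Within groups the genes kept different company. Over deviations from the 12 group means, Morc4 and Phxr4 ran opposite (r = −0.680, and −0.724 over levels), and so did Lonrf3 and Clmp (r = −0.555, and 0.127 over levels). The other 4 pairs lay between −0.22 and 0.304. All these points share the 37 arrays and their mix of tissue.

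**Figure D3:**
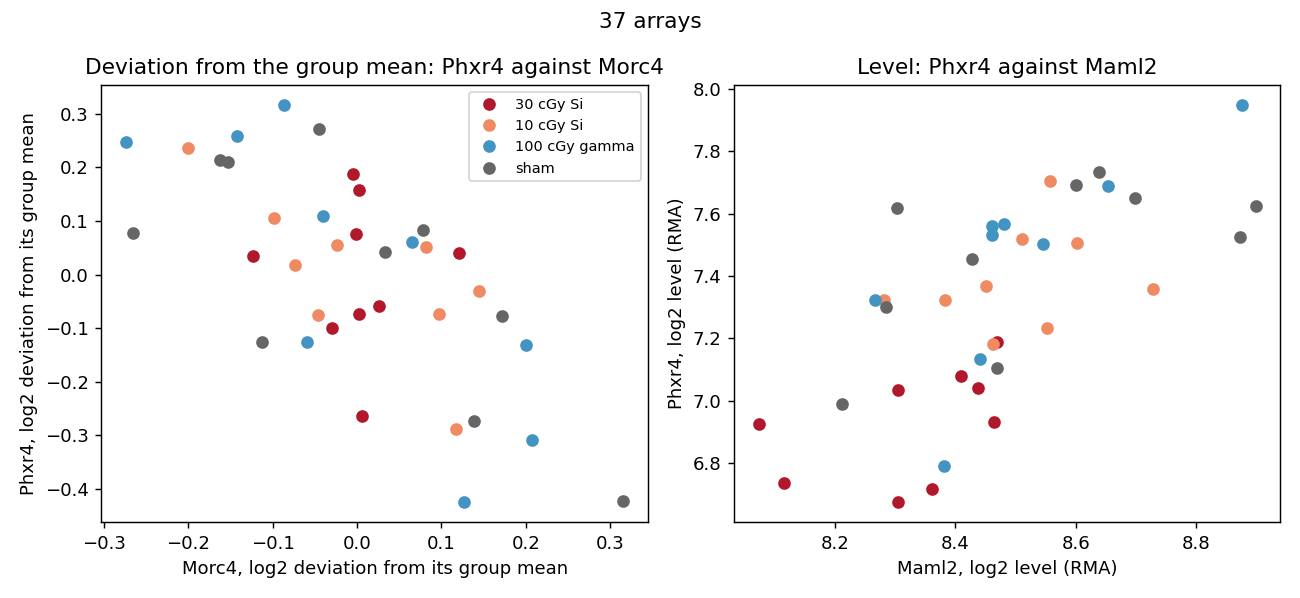
Left, deviation of Phxr4 from its group mean against that of Morc4 (log2) in each of 37 arrays, coloured by treatment. Right, log2 level of Phxr4 against that of Maml2. Phxr4 was low where Morc4 was high (r = −0.680), and high where Maml2 was high (r = 0.672).

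Maml2, the Notch coactivator gene around Phxr4, had an r of 0.672 with Phxr4 over the arrays, the tenth highest of 13173 genes. Over deviations from group means its r was 0.550, which ranked only 136 from the highest. At week 1 the levels of Maml2 were 8.46, 8.31 and 8.36 after 30 cGy Si, 8.51, 8.46 and 8.56 after 10 cGy Si, 8.65, 8.44 and 8.55 after gamma, and 8.60, 8.64 and 8.87 in sham. The arrays of 30 and 10 cGy Si lay below those of sham at that week. No overlap with sham was found for 20.7% and 11.8% of genes at these doses. At week 4 they were 8.47, 8.12 and 8.41 after 30 cGy Si, 8.45, 8.60 and 8.28 after 10 cGy Si, 8.46, 8.48 and 8.88 after gamma, and 8.47, 8.70, 8.28 and 8.43 in sham. At week 12 they were 8.44, 8.30 and 8.07 after 30 cGy Si, 8.73, 8.38 and 8.55 after 10 cGy Si, 8.46, 8.38 and 8.27 after gamma, and 8.30, 8.90 and 8.21 in sham. All groups overlapped sham at both later weeks. Over the 3 weeks Maml2 differed between 30 cGy Si and sham by −0.22 ± 0.084 and was not called (limma adjusted p = 0.24). Signal of Phxr4 probes and of unspliced Maml2 RNA on the same strand cannot be told apart with these values.

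The 2 nearest tested genes on each side of each gene were not called between 30 cGy Si and sham. Around Morc4, the ubiquitin ligase gene Rnf128 differed by 0.30 ± 0.15 and Tbc1d8b by 0.16 ± 0.13, and on the other side Rbm41 differed by −0.07 ± 0.078 and Prps1, for a nucleotide synthesis enzyme, by 0.18 ± 0.097. Around Lonrf3, Il13ra1, an interleukin receptor gene, differed by −0.01 ± 0.083 and Pgrmc1, for a haem-binding membrane protein, by 0.17 ± 0.068. Around Clmp, Gramd1b differed by −0.07 ± 0.076 and Hspa8, for a constitutive chaperone, by −0.05 ± 0.063. Around Phxr4 and Maml2, Mtmr2, for a phosphoinositide phosphatase, differed by 0.12 ± 0.065 and Ccdc82 by −0.09 ± 0.085. Morc4 and Lonrf3 lie on chromosome X and Clmp and Phxr4 on chromosome 9. Of the 411 other X-linked genes tested, 64.2% lay above 0 over the 3 weeks with a median difference of 0.06 and 0 called by limma, beside 58.4% and a median of 0.03 over all genes, where 1939 genes had an unadjusted p under 0.05.

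Relatives of the genes did not pass the test between 30 cGy Si and sham at any week or over the 3 weeks. Nor did they over the 3 weeks between 10 cGy Si and sham, gamma and sham, or 10 cGy Si and gamma, and the single weeks of those comparisons were not counted. Of the other MORC and CW zinc finger genes, 3 of 7 were tested and 0 passed between 30 cGy Si and sham, with a median difference of −0.07 beside 0.03 over all genes. Morc2a differed by −0.07 ± 0.073, Morc3 by −0.02 ± 0.099 and Kdm1b, a histone demethylase gene, by −0.08 ± 0.060. Of 11 symbols listed for the CTX family, relatives of Clmp, 9 were tested and 0 passed, with a median of 0.05. The values furthest from 0 were those of Vsig2 (0.38 ± 0.21) and Igsf11 (−0.30 ± 0.12).

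Of 16 tight junction genes 15 were tested and 0 passed, with a median of −0.01 over the 3 weeks. By week, 5 of 15 lay above 0 at week 1 (median −0.27), 14 of 15 at week 4 (median 0.22) and 4 of 15 at week 12 (median −0.13), beside medians of 0.03, 0.03 and 0.01 over all genes. Cldn8 differed by 0.38 ± 0.24 and Cldn1 by −0.26 ± 0.11. Of 5 LON domain genes 4 were tested and 0 passed, with a median of −0.04. Lonrf1, which shares its name and domains, differed by −0.15 ± 0.12, and Crbn, a substrate receptor of a ubiquitin ligase, by −0.14 ± 0.077. The other per-hexamer repeat genes Phxr1, Phxr2 and Phxr5 were not analysed here.

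Between weeks 12 and 1 of the gamma and 10 cGy Si arrays 3 of 9 CTX genes and 2 of 15 tight junction genes passed, where 20.8% of all genes did, 8.59% as higher and 12.2% as lower. In the CTX family 1 gene rose, Cxadr, the coxsackievirus and adenovirus receptor of epithelial junctions (0.76 ± 0.17, limma adjusted p = 0.00247). Esam, an endothelial adhesion gene, fell by 0.61 (SE 0.11, limma adjusted p = 0.000155), and Jaml, a leukocyte adhesion gene, fell by 0.31 (SE 0.11, limma adjusted p = 0.0428). Of the tight junction genes 2 rose, Cldn7 (0.88 ± 0.26, limma adjusted p = 0.0181) and Ocln (0.54 ± 0.18, limma adjusted p = 0.029), although 0 passed without 10 cGy Si week 1 replicate 3. Only 1 passed without replicate 1 of 10 cGy Si week 1, replicate 1 or 3 of gamma week 1, replicate 1 or 3 of 10 cGy Si week 12 or replicate 3 of gamma week 12, and 4 passed without sham week 12 replicate 3. Of the MORC and LON lists 0 passed.

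The genes most like each of the 4 over the 37 arrays are given as a description, since they share the arrays and their tissue mix. Morc4 ran with Cald1, an actin-binding gene (r = 0.813), Maoa, for monoamine oxidase (0.807), and Car13, for a carbonic anhydrase (0.801), and opposite to Med12, a Mediator subunit (−0.814), and Tnrc6b, a microRNA silencing gene (−0.783). Car13 differed between 30 cGy Si and sham by 0.46 ± 0.11. Within groups the highest values for Morc4 were Tshr, the thyrotropin receptor (0.81), Ergic1 (0.799) and Lgals1, for galectin (0.788). Lonrf3 ran with Wsb1 (0.743), Ssbp1, for a mitochondrial DNA-binding protein (0.728), and the histone deacetylase gene Hdac2 (0.724), and opposite to Plin4, a lipid droplet gene (−0.81), and Gpr146 (−0.76). Within groups it ran with Zfc3h1 (0.734), Rictor, an mTOR complex subunit (0.726), and Atrx, a chromatin remodeller (0.701).

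Clmp ran with Cox15, a haem synthesis gene of mitochondria (r = 0.703), Rnf24 (0.69) and Dmxl2 (0.675), and opposite to Zfp296 (−0.683) and Sidt1 (−0.671). Sidt1 differed between 30 cGy Si and sham by −0.86 ± 0.22. Within groups Clmp ran with Plcb1, a phospholipase gene (0.715), Cox15 (0.712) and Copz1 (0.667). Phxr4 ran with the histone methyltransferase gene Kmt2c (0.786), Pitpnc1 (0.783) and Cdkn1b, the cell-cycle inhibitor p27 gene (0.72), and opposite to Mrpl17, a mitochondrial ribosome gene (−0.752), and Stom (−0.75). Within groups it ran with Spns3 (0.735), Pitpnc1 (0.727) and Herc1, a ubiquitin ligase gene (0.722).

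The tissue mix moved between arrays beside these genes. Over the T and NK cell markers, 0 of 11 lay above 0 in 30 cGy Si minus sham over the 3 weeks, with a mean of −1.07. Their mean level ran from 4.06 to 6.24 over 30 cGy Si arrays, 4.36 to 7.20 over 10 cGy Si arrays, 4.36 to 7.86 over gamma arrays and 4.15 to 7.62 over sham arrays. Over the B cell markers 0 of 9 lay above 0 with a mean of −1.29, and their mean level ran from 4.09 to 7.29 after 30 cGy Si, 4.17 to 8.34 after 10 cGy Si, 4.27 to 8.03 after gamma and 3.77 to 8.90 in sham. The high end of both lists was lower over 30 cGy Si arrays than over the others.

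For skeletal muscle markers 2 of 14 lay above 0 with a mean of −0.70, and their level ran from 4.81 to 7.69 after 30 cGy Si, 4.85 to 10.1 after 10 cGy Si, 4.91 to 9.79 after gamma and 4.45 to 9.94 in sham. For fibroblast markers 10 of 10 lay above 0 (mean 0.16), for macrophage markers 9 of 10 (0.26), for luminal epithelium 9 of 13 (0.08), for basal epithelium 5 of 8 (0.12) and for white adipocytes 5 of 9 (0.01). For brown adipocytes it was 4 of 6 (0.08), for endothelium 6 of 10 (0.04) and for mast cells 5 of 6 (0.13). No gene of these lists was called, and their part in the results was not tested beyond the covariates given next. The brown fat genes Ucp1 and Elovl3, the mast cell receptor genes Fcer1a and Ms4a2 and the T cell gene Trat1 were below the filter.

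Within groups, Morc4 was high where white adipocyte markers were high (r = 0.499) and T and NK cell markers were low (−0.418). Phxr4 was low where brown adipocyte (−0.513) and white adipocyte (−0.428) markers were high. Lonrf3 ran opposite to brown (−0.469) and white adipocyte markers (−0.456). Clmp had no such value beyond 0.327, with brown adipocyte markers. With covariates for lymphocyte, muscle, epithelial and brown adipocyte levels, 30 cGy Si minus sham over the 3 weeks was 0.36 ± 0.074 for Morc4, 0.62 ± 0.12 for Lonrf3, 0.28 ± 0.058 for Clmp and −0.47 ± 0.098 for Phxr4. White adipocyte levels were not among the covariates, so these values are not adjusted for them.

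**Figure D4:**
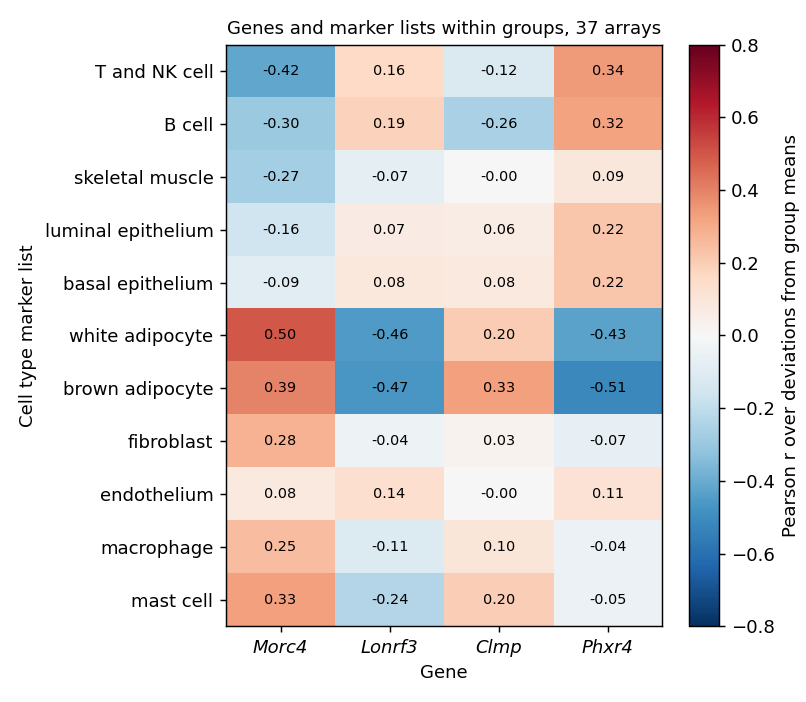
Pearson r between each gene and the mean level of each marker list, over deviations from the 12 group means in 37 arrays (colour scale from −0.8 to 0.8). Morc4 with white adipocyte markers (0.499) and Phxr4 with brown adipocyte markers (−0.513) lie furthest from 0.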

How the data were processed

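Total RNA of intact mammary glands was hybridised to 37 Affymetrix arrays. The deposited values were log2 levels that the authors made with RMA in oligo (per the submitters' processing notes; version not given in the sources used here). Of 35556 probe sets, 21218 had 1 symbol in the platform annotation. The probe set of highest mean stood for a gene, and genes with a mean above the 30th percentile (log2 4.04) were tested. A limma model (version 3.58.1, R 4.3.3) gave every difference, SE, 95% interval and adjusted p. It had 12 group means and used lmFit and eBayes with default settings. Adjusted p was Benjamini-Hochberg over 13174 genes, two-sided, with a call under 0.05. The model was also run on simulated data with independent noise for each gene and array. That run does not cover the tissue mix that the real arrays share. The 4 genes and all lists were chosen with earlier results of these data known. Named besides them were up to 4 genes of a family list with the largest difference between 30 cGy Si and sham, 3 genes of highest and 2 of lowest correlation, 3 of highest correlation within groups, neighbours, and the next 3 genes by p, with predicted genes passed over. Not every such gene is printed. Esam, Jaml, Cldn7 and Ocln were named after their values were seen. Same-numbered replicates did not deviate together on average over 18 pairs of groups, so the main fit has no block. Their mean r was 0.0461, against -0.023 for other numbers, and r was over 0.1 throughout in 1 of 18 pairs. At week 1, however, every pair of groups had a positive mean r for the same number and a negative one for other numbers. It was 0.296 for 10 cGy Si with sham, 0.254 for gamma with sham and 0.229 for 10 cGy Si with gamma. For 30 cGy Si with the other groups it ran from 0.0994 to 0.143. Weeks 4 and 12 held both signs. The number of arrays limits the precision.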

Additional observations from a re-analysis of the deposited data

Results flagged for a closer look

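In the week 4 sham group, Clmp was near 7.91 in 3 arrays and 7.67 in replicate 4, and that gap made up 0.99 of the group's range. It was 1 of 4 such groups examined, under a rule whose threshold chance passes in about 1 of 20. The chance of the gap seen here was not computed. The week 4 Clmp difference of 30 cGy Si from sham was 0.15 without that array and 0.21 with it.

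At week 4, Phxr4 differed from sham by -0.377 after 30 cGy Si and by 0.314 after 100 cGy gamma. Every array of 30 cGy Si lay below the sham mean and every gamma array above it. This difference was not tested, because the 30 cGy Si arrays chose the gene. Both comparisons share the sham arrays.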

How the results depend on the processing

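Over the other settings (10, or 9 for Lonrf3, which the filter at the 50th percentile removes) and 37 fits that left out 1 array, the 30 cGy Si minus sham difference over 3 weeks kept its sign for each of the 4 genes, from 0.36 to 0.48 for Morc4, 0.53 to 0.68 for Lonrf3, 0.26 to 0.31 for Clmp and -0.63 to -0.47 for Phxr4. With tissue covariates the week 1 difference was 0.57 for Morc4 and -0.64 for Phxr4.

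Lonrf3 at week 4 minus week 1 was no longer called with no filter (0.47, adjusted p = 0.0562), with quantile normalization (0.42, adjusted p = 0.0594) and with the replicate block (0.47, adjusted p = 0.0549), and ran from 0.43 to 0.52 over fits leaving out 1 array. In 9 of those 37 it was not called: without gamma week 1 replicate 1 (0.44) or 3 (0.47), 10 cGy Si week 1 replicate 2 (0.46) or 3 (0.44), gamma week 4 replicate 1 (0.47) or 2 (0.43), or 10 cGy Si week 4 replicate 1 (0.49), 2 (0.43) or 3 (0.50). Morc4 at week 12 minus week 1 ran from 0.24 to 0.36 and was not called without gamma week 1 replicate 1 (0.24), 10 cGy Si week 1 replicate 3 (0.26), gamma week 12 replicate 2 (0.27) or 10 cGy Si week 12 replicate 3 (0.28). In the tests between 10 cGy Si and gamma and between weeks, the replicate block changed no other call of the 4 genes. In 30 cGy Si minus sham over 3 weeks, which chose the genes, it left none of the calls, those of Morc4, Clmp and Phxr4 included. Lonrf3 at week 12 minus week 1 stayed called throughout (0.71 to 0.94).

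Uncalled values near 0 changed sign. With array weights Lonrf3 in 10 cGy Si minus gamma at week 1 was -0.0242 and Clmp at week 4 minus week 1 was 0.008986, and with tissue covariates Phxr4 in 10 cGy Si minus gamma over 3 weeks was 0.002957. Leaving out 1 array, 10 cGy Si minus gamma ran from -0.003571 to 0.04449 for Clmp over 3 weeks, at week 1 from -0.04773 to 0.1928 for Morc4, -0.09433 to 0.08555 for Lonrf3 and -0.1274 to 0.1699 for Phxr4, and at week 12 from -0.008525 to 0.1357 for Clmp and -0.1234 to 0.2472 for Phxr4. Week 4 minus week 1 ran from -0.006302 to 0.114 for Morc4 and -0.05363 to 0.02369 for Clmp, and Clmp ran from -0.05917 to 0.01293 at week 12 minus week 1 and -0.05084 to 0.02824 at week 12 minus week 4.

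The number of all genes called moved more than the 4 genes' values. For 30 cGy Si minus sham over 3 weeks it was 4, and 0 with no filter, 11 with the filter at the 50th percentile, 7 with trend and robust settings, 288 with array weights, 0 with the replicate block, 2 with tissue covariates, 0 with only the groups compared, 7 without the 2 arrays least like the rest (chosen after seeing the data), and 0 to 305 leaving out 1 array (305 without sham week 12 replicate 3). For 10 cGy Si minus sham it was 2 with tissue covariates and 0 to 3 leaving out 1 array, and for gamma minus sham 0 to 1. For 10 cGy Si minus gamma at week 1 it was 0, and 1 with quantile normalization, 3 with array weights, 2 with the replicate block, 2 with covariates, 1 without the 2 arrays and 0 to 4 leaving out 1 array (4 without 10 cGy Si week 1 replicate 1). At week 4 it was 1 with array weights and 0 to 1 leaving out 1 array (1 without 30 cGy Si week 4 replicate 3). Week 4 minus week 1 had 2538 with array weights, beside 1383. Week 12 minus week 4 had 19, and 138 with array weights, 65 with covariates, 46 without the 2 arrays and 8 to 50 leaving out 1 array. Of the CTX and tight junction genes, 2 to 4 and 1 to 5 were called at week 12 minus week 1 over the other settings. The causes were not tested.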
